A study of Mus musculus with 4 samples.

Results

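From the mouse paralogues of the miR-17 cluster, 8 mature miRNAs were followed, out of 611 mouse miRNAs on the array. They were chosen by exact name and all were present: mmu-miR-106b, mmu-miR-106b*, mmu-miR-93 and mmu-miR-25 from the miR-106b-25 cluster, mmu-miR-18b, mmu-miR-20b and mmu-miR-363 from the miR-106a-363 cluster, and mmu-miR-92b, which is encoded alone. The species prefix is left out below. RNA came from neural stem and progenitor cells (NSPCs) that had been made from mouse embryonic stem cells (ESCs) and were grown as neurospheres, floating balls of dividing neural cells. The 4 groups were secondary neurospheres (passage 1, 12 days of culture after embryoid bodies) titled NFIA OE, secondary neurospheres titled control, primary neurospheres (passage 0, 6 days) titled NFIA OE and primary neurospheres titled control. NFIA OE stands for overexpression of NFIA, a transcription factor known for turning neural progenitors toward astrocytes. Each group was 1 sample on 1 array, with no replicate. Overexpressing and control cells had shared the same mixed spheres and were sorted apart by fluorescence, so every sample had also been through co-culture and sorting. The labels used here do not name the vector, its promoter or the number of cell clones.

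The labels disagree about which sample carries the transgene. Both samples titled control have a source name that assigns them to the NFIA OE line, and both titled NFIA OE have a source name that says WT. The titles define the groups here, and under the source names every difference by title below would change its sign. The arrays hold no probe for Nfia and so do not settle the question. Differences between passages are not touched by it.

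A miRNA guides a silencing complex to messenger RNAs, mainly through its seed, bases 2 to 8 from the 5′ end, so that miRNAs with the same seed share many targets. The clusters of this family are known for driving the cell cycle and for restraining cell death, partly by silencing inhibitors of cell division such as Cdkn1a and Cdkn1c. In mammals the family is spread over 3 paralogous clusters: miR-17-92, miR-106b-25, which lies inside the DNA replication gene Mcm7, and the X-linked miR-106a-363. In mouse brain, miR-106b-25 has been reported to promote proliferation of adult neural stem and progenitor cells, and miR-92b to limit the production of intermediate progenitors of the cortex.

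The mature sequences are printed because the seeds, and the few bases by which paralogues differ, decide which of these miRNAs can share targets and which a probe has to tell apart. All 8 members were matched by arm name to RefSeq (GRCm38.p6). The seed is in capitals, the members come first in each group, and the miR-17-92 strand of the same seed follows.
miR-106b: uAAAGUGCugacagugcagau
miR-93: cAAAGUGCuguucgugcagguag
miR-20b: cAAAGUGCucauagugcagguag
miR-17: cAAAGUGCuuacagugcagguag
miR-20a: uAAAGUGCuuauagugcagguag
miR-18b: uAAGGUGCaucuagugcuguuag
miR-18a: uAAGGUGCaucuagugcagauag
miR-25: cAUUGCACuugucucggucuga
miR-363: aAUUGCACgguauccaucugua
miR-92b: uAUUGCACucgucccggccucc
miR-92a: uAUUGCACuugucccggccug
miR-106b*: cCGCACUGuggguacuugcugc

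Of the members, 3 carry the seed AAAGUGC, 3 carry AUUGCAC, miR-18b carries AAGGUGC, and miR-106b* has a seed shared with no other listed strand. Compared from base 1 without gaps, miR-20b differs from miR-20a at 2 of 23 bases (C1U and C10U, the member's base first and positions counted from the 5′ end). miR-18b differs from miR-18a at 2 of 23 (U18A and U20A), and miR-92b from miR-92a at 2 of 21 (C10U and C21G). miR-363 shares the seed of miR-92a but differs from it at 11 of 21 bases. How much of a probe's signal came from such a near relative was not tested. The mature miR-19b and miR-92a are each encoded both in miR-17-92 and in miR-106a-363 (hairpins Mir92-1 and Mir92-2 for miR-92a), so their signal cannot be assigned to either cluster. miR-106a, the first miRNA of the X-linked cluster, was not on the array under that name and so was not analysed here.

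In the RefSeq table (GRCm38.p6, a build that the array files do not name), Mir106b, Mir93 and Mir25 lie within Mcm7 on the minus strand of chromosome 5, with mature miR-106b at chr5:138165787-138165807, miR-93 at chr5:138165574-138165596 and miR-25 at chr5:138165332-138165353. On the minus strand of the X chromosome, miR-18b lies at chrX:52742381-52742403, miR-20b at chrX:52742159-52742181 and miR-363 at chrX:52741697-52741718, and none of these hairpins falls inside another gene of the table. miR-92b, at chr3:89227126-89227147 on the minus strand, has Muc1 as its right neighbour. miR-106b and miR-106b* are opposite arms of 1 hairpin, shown with both arms in capitals because only one of them was well measured.
Mir106b hairpin: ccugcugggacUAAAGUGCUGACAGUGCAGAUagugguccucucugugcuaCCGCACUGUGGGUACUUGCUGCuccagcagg

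Signal is spot intensity in scanner units, and a probe was taken as detected where 50% or more of its spots on that array stood well above background. Relative intensity is a miRNA's signal divided by the 75th percentile of its array, taken over probes that all 4 arrays detected. That percentile was 369 and 443 units on the secondary arrays titled NFIA OE and control, and 261 and 167 units on the primary arrays in the same order of titles. Arrays detected 186 to 220 mouse miRNAs, and 153 could be tested because a probe of theirs was detected on all 4. The neural markers miR-9, miR-9* and miR-124 were detected on every array, while 0 of 4 muscle, 0 of 4 blood, 0 of 2 endothelial and 0 of 1 liver markers were. The oligodendrocyte markers miR-219 and miR-338-3p were also detected, except for miR-338-3p on the primary array titled control. Levels of different miRNAs are read by different probes and are not compared with each other.

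The 8 members fell into 3 classes of detection. miR-106b, miR-93, miR-25, miR-20b and miR-92b were detected on all 4 arrays and are the 5 that entered the tests. miR-363 was detected on both primary arrays and on neither secondary one. miR-18b was detected only on the primary array titled control, and miR-106b* only on the primary array titled NFIA OE.

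The passage comparison asked how secondary neurospheres differ from primary ones. All 5 tested members fell, by 1.80-fold to 2.25-fold, where limma called 45.8% of the 153 miRNAs, 32.7% lower; without scaling between arrays miR-106b and miR-93 stood slightly higher and none of the 5 was called. miR-363, which could not be tested, was at least 4.52-fold lower. Passage and days of culture rise together in these samples and cannot be told apart. In bulk RNA, fewer cells of a type and less RNA per cell cannot be told apart either.

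Within the Mcm7 cluster, miR-106b had a relative intensity of 1.05 and 1.203 in secondary neurospheres titled NFIA OE and control, against 2.003 and 2.04 in the primary ones in the same order of titles. miR-93, which shares its seed, stood at 0.434 and 0.496 in secondary neurospheres, against 0.842 and 0.910 in primary ones. miR-25, of the miR-92 seed, stood at 0.575 and 0.633 in secondary neurospheres, against 1.196 and 1.29 in primary ones. For each of the 3, both secondary values were below both primary values, and the arrays of 1 passage lay close together. Of all 153 tested miRNAs, 112 were lower by passage under this scaling. How many of them separated the passages in the same way was not counted.

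The log2 differences of these 3, passage 1 minus passage 0, were -0.85 for miR-106b, -0.92 for miR-93 and -1.04 for miR-25 (SE 0.29 each, n = 2 arrays per passage, limma adjusted p = 0.0128, 0.00656 and 0.00199). Each has 2 probes of up to 10 spots, and the probes of 1 miRNA gave passage differences within 0.044 log2 of each other. Over all 6 probes the passage differences ran from -0.83 to -1.06. Probes of 1 miRNA read the same RNA on the same arrays, so their agreement is no independent replicate.

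One pair at a time, with no test, 17.0% of 188 miRNAs were at least 2-fold lower in secondary than in primary neurospheres titled NFIA OE, and 25.6% of 160 in those titled control. miR-25 passed 2-fold in both pairs (2.08-fold and 2.04-fold lower), while miR-106b (1.91-fold and 1.69-fold) and miR-93 (1.94-fold and 1.84-fold) stayed under it in both. miR-20b and miR-92b passed it only in the samples titled control (2.65-fold and 3.28-fold lower), which makes 1 of 5 members among the samples titled NFIA OE and 3 of 5 among those titled control. Before scaling the order of the arrays was another one: the brighter miR-106b probe read 558 and 761 units in secondary neurospheres titled NFIA OE and control, against 758 and 497 units in primary ones. The lowest reading is thus that of the primary array titled control, the array with the lowest 75th percentile.

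miR-20b, the miR-17 seed member of the X-linked cluster, had a relative intensity of 1.197 and 1.34 in secondary neurospheres titled NFIA OE and control, against 2.29 and 3.55 in primary ones. Its log2 difference by passage was -1.17 (SE 0.29, limma adjusted p = 0.000489). The primary array titled control stood above the other primary array, and the difference by passage was -0.94 among samples titled NFIA OE and -1.41 among those titled control.

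miR-92b has 4 probes on the array, and only 1 of them, with 5 spots, was detected. The others read 0.62 to 6.70 units, and 0 of their spots stood well above background on any array. By the detected probe, relative intensity was 0.0682 and 0.0891 in secondary neurospheres titled NFIA OE and control, against 0.0894 and 0.292 in primary ones. The log2 difference of miR-92b by passage was -1.05 (SE 0.29, limma adjusted p = 0.00189). Only the primary array titled control stood high: the difference was -1.71 among samples titled control and -0.39 among those titled NFIA OE, where the median of all miRNAs was also -0.39. The SE is pooled over all tested miRNAs and does not measure this gap.

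**Figure D1:**
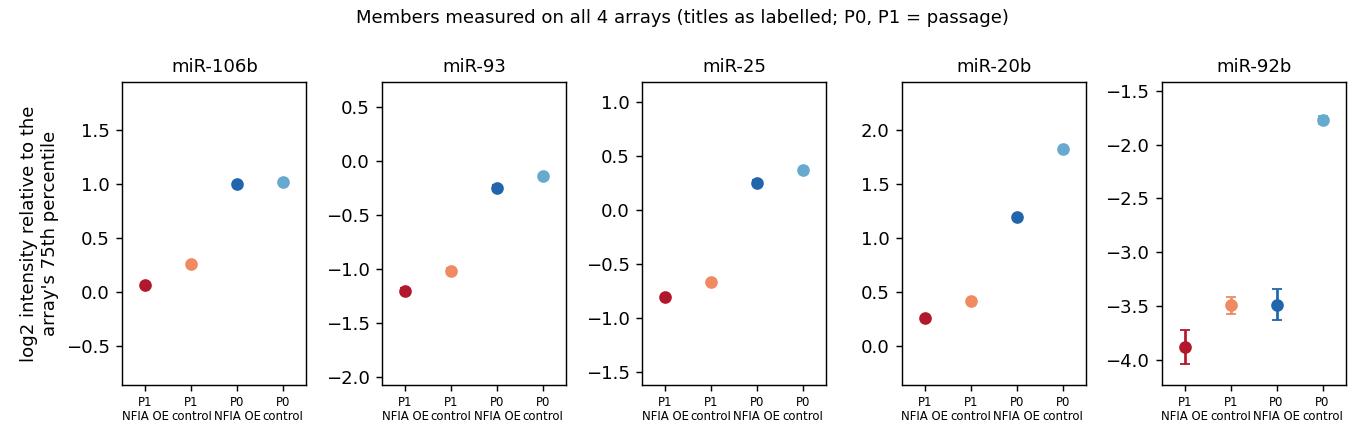
Log2 intensity relative to the array's 75th percentile (vertical axis) of the 5 members detected on all 4 arrays, 1 point per array, with bars for the standard error over spots (technical error only). Both secondary arrays (P1) lie below both primary arrays (P0) for miR-106b, miR-93, miR-25 and miR-20b, while for miR-92b the primary array titled control stands apart. How many of all 153 tested miRNAs separate the passages in this way was not counted.

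miR-363, the last miRNA of the X-linked cluster, was close to background in secondary neurospheres. Its brighter probe read 10.99 ± 1.39 units (SD, 9 spots) on the secondary array titled NFIA OE and 11.6 ± 3.34 units (SD, 9 spots) on the one titled control. The same probe read 41.0 ± 4.36 units (SD, 10 spots) on the primary array titled NFIA OE and 77.2 ± 3.32 units (SD, 8 spots) on the one titled control. None of the secondary spots (0 of 9 on each array) was well above background, against 10 of 10 and 8 of 8 on the primary arrays. The spots of this probe on the secondary arrays did not overlap those on the primary arrays. Spots are repeats within an array, and how many other probes separated likewise was not counted.

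A miRNA that is dim on one side has only a bound, taken against the higher of its own signal and the lowest detected signal of that array. Each bound starts from the arrays that detected the miRNA, so its direction was set by detection and it is no test. miR-363 was at least 2.64-fold lower in secondary than in primary neurospheres titled NFIA OE, and at least 7.75-fold lower in those titled control; without scaling these bounds were 1.87-fold and 2.93-fold. Of the 179 miRNAs measured on both primary arrays, 9.5% were detected on neither secondary array. The 7 listed strands of miR-17-92 were detected on all 4 arrays, while miR-18a*, the other arm of the miR-18a hairpin, was detected on both primary arrays and neither secondary one, like miR-363.

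miR-18b, whose brightest probe has 5 spots, read 3.22 ± 4.04 and 3.01 ± 3.49 units (SD) in secondary neurospheres titled NFIA OE and control, against 18.8 ± 3.13 and 29.95 ± 3.30 units in primary ones. Well above background were 0 of 5 spots on each secondary array, against 2 of 5 and 5 of 5 on the primary arrays. In the samples titled control, miR-18b was at least 3.61-fold lower in secondary neurospheres, a bound that shrank to 1.37-fold without scaling.

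miR-106b*, the opposite arm of the miR-106b hairpin, stayed near the detection limit throughout. Its brightest probe read 14.5 ± 5.10 and 17.0 ± 2.87 units (SD, 5 spots) in secondary neurospheres titled NFIA OE and control, against 22.7 ± 3.70 and 11.8 ± 5.44 units in primary ones. The groups' spots overlapped. In the samples titled NFIA OE its bound by passage, secondary under primary, was 1.68-fold. It was 1.19-fold without scaling and 1.04-fold under quantile normalization. This bound starts from the only array that detected miR-106b*, and with overlapping spots it does not establish a fall. By title at passage 0 no fold could be given.

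**Figure D2:**
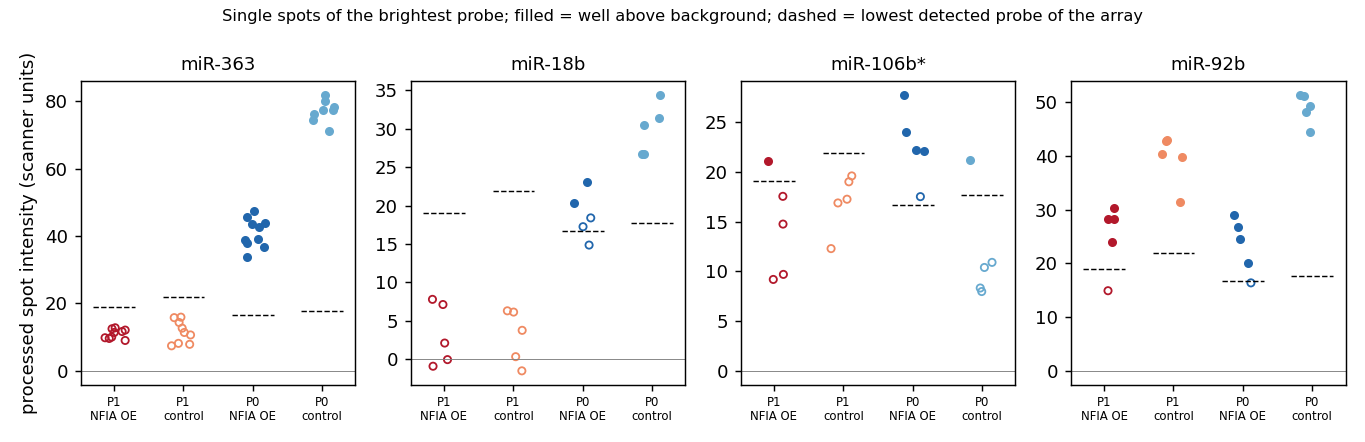
Processed intensity (scanner units) of single spots of the brightest probe of miR-363, miR-18b, miR-106b* and miR-92b on each array. Filled points were well above background, and the dashed line is the lowest signal of any detected probe on that array. miR-363 and miR-18b lie under that line on both secondary arrays (P1).

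These falls have to be read against the whole array. The median of the 5 members was -1.04 log2, while the median of all 153 differences was -0.39. All 5 members lay 0.46 to 0.78 log2 below the median miRNA. Relative to that median, miR-20b alone was called (-0.78, limma adjusted p = 0.0287), against a background of 34.6% called, 17.6% lower. miR-25 and miR-92b missed the threshold there (-0.65 and -0.66, limma adjusted p = 0.0767 and 0.0728), as did miR-93 and miR-106b (-0.53 and -0.46, limma adjusted p = 0.160 and 0.239).

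How arrays are brought to a common scale decides the size of these differences. Without scaling, miR-106b stood at 0.10 and miR-93 at 0.035 by passage, so their direction turned, and 0 of the 5 members were called by limma. Under an all-probe percentile and in the authors' processed values 0 were called as well. Of 12 alternatives, 6 shift all miRNAs alike or change only the error model, and so leave the members' distance to the median miRNA as it was. In the other 6 (quantile normalization, normexp, the authors' processed values, both looser detection filters and the brightest probe alone) all 5 members stayed below the median miRNA, by 0.20 log2 or more. The lower bound on miR-363, over both titles, lay between 2.34-fold and 3.93-fold under 5 other scalings or backgrounds.

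**Figure D3:**
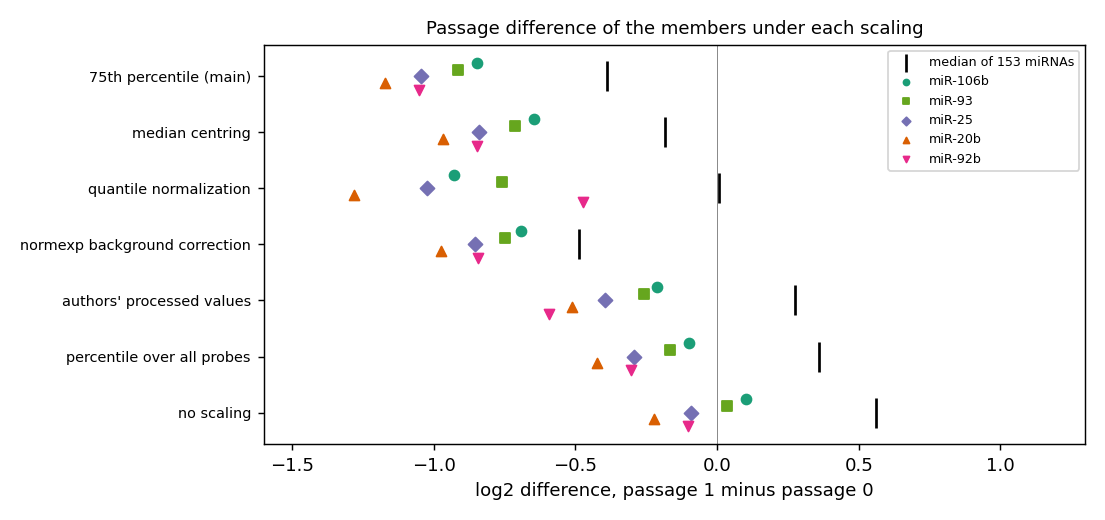
Log2 difference by passage, secondary minus primary (horizontal axis), of the 5 tested members under the 75th-percentile scaling and 6 alternatives, with the median of the 153 miRNAs as a black tick. The members move with the scaling. Their distance to the tick is the same by construction in the rows for the 75th percentile, median centring, the all-probe percentile and no scaling, and they also lie left of it in the other 3 rows.

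A ratio of 2 miRNAs on the same array does not depend on that scaling. Relative to miR-106b, miR-93 and miR-25 differed by no more than 0.27 log2 between passages in either pair of arrays. miR-20b differed from miR-106b by less than 0.01 log2 between passages in the pair titled NFIA OE, and by -0.65 among samples titled control. miR-363 was lower relative to miR-106b, by at least 1.38-fold in the pair titled NFIA OE and at least 4.58-fold in the pair titled control. miR-18b was lower in this way by at least 2.13-fold in the pair titled control. None of these ratios has a replicate, so they carry no test.

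Markers of pluripotent cells were lower in secondary neurospheres, like the members. Their list held 16 miRNAs of the miR-290 and miR-302 clusters, of which 7 and 1 were detected in secondary neurospheres titled NFIA OE and control, against 11 and 10 in primary ones. Their summed relative intensity was 0.521 and 0.0495 in secondary neurospheres, against 4.72 and 5.74 in primary ones. The summed relative intensity of the 3 neural markers was higher, at 6.53 and 9.96 in secondary neurospheres, against 2.44 and 2.64 in primary ones. That sum does not hold for each marker. The profile of miR-124 over the 4 arrays was close to that of miR-92b (0.25 log2 apart), which was lower by passage (-1.05). The part of either marker list in the fall of the members was not tested. Of these markers, miR-302b and miR-294 are shown because they share letters with the miR-17 seed, as the run AAGUGC occupies bases 2 to 7 of both and bases 3 to 8 of miR-106b, miR-93 and miR-20b.
miR-302b: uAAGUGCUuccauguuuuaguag
miR-294: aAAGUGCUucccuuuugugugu

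The second comparison set samples titled NFIA OE against samples titled control, the contrast by which the study examined NFIA overexpression. Of the 5 tested members, miR-92b was called, 2.07-fold lower in the NFIA OE titles than in the control titles (log2 difference -1.05, SE 0.29, 2 arrays per title, limma adjusted p = 0.0195). Over all 153 miRNAs limma called 2.61% by title, 1.31% lower. The other 4 members had differences of -0.11 (miR-106b), -0.13 (miR-25), -0.15 (miR-93) and -0.40 (miR-20b), and none of them passed (limma adjusted p = 0.890 to 0.920); without scaling miR-106b, miR-25 and miR-93 changed sign. Their 95% intervals reached from -0.69 to 0.46 for miR-106b and from -0.98 to 0.18 for miR-20b. Both intervals include no difference, and with 2 arrays per title the direction stays unsettled.

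The call on miR-92b rests on 1 of its 4 probes and mainly on the primary pair. At passage 0 its probe read 23.3 ± 5.11 units in the sample titled NFIA OE, against 48.9 ± 2.86 units in the one titled control (SD, 5 spots each), although the control array had the lower 75th percentile of the pair. At passage 1 it read 25.1 ± 6.14 units in the sample titled NFIA OE, against 39.5 ± 4.74 units in the one titled control. The relative difference was thus -1.71 at passage 0 and -0.39 at passage 1. The SE of 0.29 behind the call is pooled over all 153 tested miRNAs. It does not measure this gap between the 2 pairs of miR-92b. With normexp background correction the difference of miR-92b was -0.43 over both passages and not called (limma adjusted p = 0.758). That correction adds an offset of 50 units, more than this probe read on any array, and so shrinks the difference by construction.

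Markers of mesenchymal cells stood apart by title as miR-92b did, in the opposite direction. All 4 listed (miR-199a-3p, miR-199a-5p, miR-199b* and miR-214) were detected in both samples titled NFIA OE, against 2 of 4 in both titled control, where miR-199a-5p and miR-214 were below detection. Their summed relative intensity at passage 1 was 1.63 in the sample titled NFIA OE, against 0.253 in the one titled control, and at passage 0 it was 1.48 against 0.358 in the same order of titles. Their part in the difference of miR-92b was not tested.

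At passage 0, 3.91% of 179 miRNAs were at least 2-fold lower in the sample titled NFIA OE. Of the measured members 2 of 6 were that much lower, miR-363 and miR-92b, and miR-92b belongs to neither cluster. After scaling the Mcm7 cluster hardly differed, at -0.02 for miR-106b, -0.11 for miR-93 and -0.11 for miR-25. Of the X-linked cluster, miR-20b was 1.55-fold lower (-0.63) and miR-363 2.81-fold lower (-1.49) in the sample titled NFIA OE. miR-18b had only a bound, at least 2.48-fold lower there. It was detected only in the sample titled control, so the direction of that bound was set by detection and adds no support. The nearest relatives, 7 strands taken up below, were also all lower in that sample, from -0.53 to -0.08 with a median of -0.29. Being lower was thus not confined to the X-linked cluster, and miR-20b lay close to the lowest of these strands. In raw units, titled NFIA OE against titled control, miR-363 was lower too, at 41.0 against 77.2 units for the brighter probe and 30.98 against 53.4 units for the other. The probes of miR-20b differed little and in opposite directions, at 788 against 752 units and 454 against 470 units. The brighter probes of the Mcm7 cluster read higher in the sample titled NFIA OE: 758 against 497 units for miR-106b, 568 against 392 for miR-93 and 485 against 335 for miR-25. Relative to miR-106b on the same array, miR-363 was 2.76-fold lower, miR-20b 1.52-fold lower and miR-92b 3.22-fold lower in the sample titled NFIA OE. A single pair of arrays allows no test of these differences. Under other scalings and backgrounds the difference of miR-363 ran from -1.68 to -0.85, always lower in the sample titled NFIA OE. The bound on miR-18b ran from 1.57-fold to 2.87-fold.

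At passage 1, where 1.03% of 195 miRNAs were at least 2-fold lower in the sample titled NFIA OE, no member was (0 of 5). The 5 measured differences ran from -0.39 for miR-92b to -0.14 for miR-25, beside a median of -0.09 over all 153. miR-363 and miR-18b were below detection in both samples of that passage. For these 2 a difference by title at passage 1 therefore has no value.

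**Figure D4:**
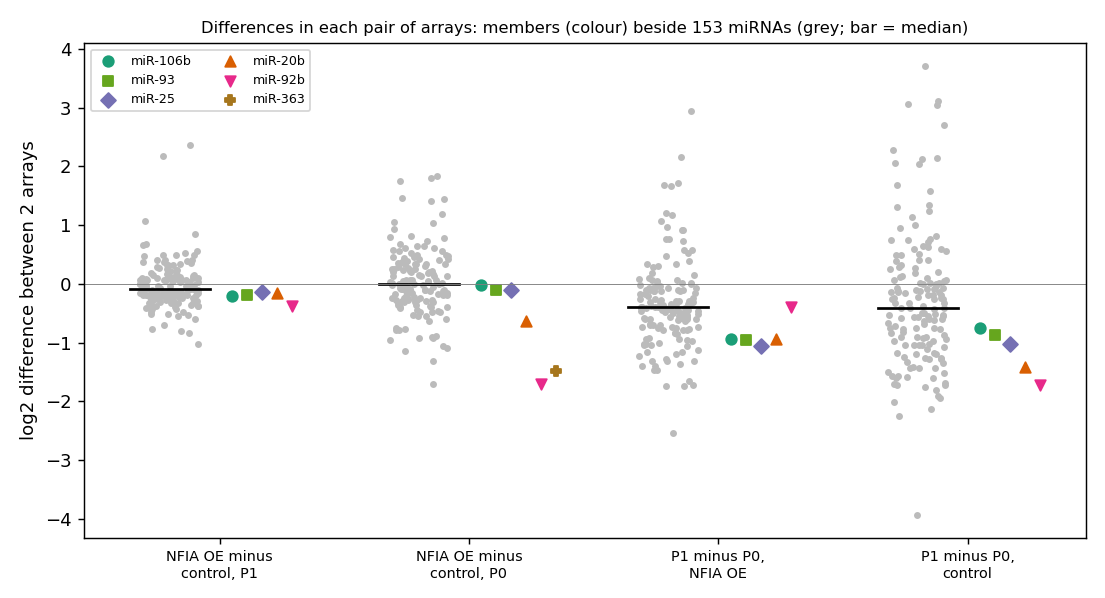
Log2 difference between the 2 arrays of each pair (vertical axis) for the members in colour and for the 153 miRNAs detected on all 4 arrays in grey, with a black bar at their median. At passage 0, miR-92b and miR-363 lie far below miR-106b, miR-93 and miR-25, while at passage 1 the members lie together.

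The nearest relatives, the 7 strands of miR-17-92, gave values close to those of the paralogues. By passage limma called all 7 lower, where it called 32.7% of 153 miRNAs lower. Their differences ran from -0.85 (miR-19b) to -1.46 (miR-92a), with a median of -1.11 beside -1.04 for the 5 members. Relative to the median miRNA, limma called 4 of the 7 lower, beside 1 of the 5 members and 17.6% of all. By title 0 of 7 were called, beside 2.61% of all. Without scaling 4 of the 7 were lower by passage, and 0 were called there or under an all-probe percentile. In the authors' processed values 2 of the 7 were called lower by passage. Set beside its nearest sequence, miR-20b fell by 1.17 on the log2 scale and miR-20a by 0.94, a gap of -0.23 with an SE of 0.42. miR-25 fell by 1.04 and miR-92a by 1.46, a gap of 0.41 with the same SE. By title, miR-92b and miR-92a stood at -1.05 and -0.23, a gap of -0.81 that is also under 2 of the same SE, and at passage 0 the 2 were at -1.71 and -0.53. miR-18a, whose sequence differs from miR-18b at 2 bases, was detected on every array and fell by 1.42, with a relative intensity of 0.582 and 0.581 in secondary neurospheres titled NFIA OE and control, against 1.41 and 1.72 in primary ones. Of 8 other related strands on the array, 2 could be tested: miR-20a* fell by passage (-0.94, limma adjusted p = 0.00559), and miR-32 did not pass (-0.28, limma adjusted p = 0.457). Without scaling miR-20a and miR-20a* stood just above 0 by passage.

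The profiles most like the Mcm7 cluster were ranked by the root mean square difference over the 4 arrays, each profile centred on its own mean, among 148 miRNAs outside the members. For the mean of miR-106b, miR-93 and miR-25 the nearest were miR-19b (0.075 log2), miR-20a* (0.087), miR-130b (0.10), miR-20a (0.11) and miR-17* (0.11). For miR-92b they were miR-135b (0.21), miR-124 (0.25), miR-34c (0.32), miR-7a (0.37) and miR-1187 (0.37). The first list thus held 4 strands of miR-17-92 hairpins and the second list none (0). With 4 arrays these are descriptions of likeness only.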

How the data were processed

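Mature miRNAs were measured on 4 one-colour (Cy3) Agilent arrays, 1 per group. Per the file headers, spot intensity comes from Agilent's Feature Extraction (version 10.5.1.1), and the deposited processed intensity is spatially detrended, background-subtracted and not scaled between arrays. The authors' processed table holds linear intensity: every value compared lay within 1% of the gene-level total of the scanner file over a constant of that array, whose origin no source used here gives. Outlier spots were dropped, spots were averaged per probe, arrays were divided by their 75th percentile over commonly detected probes, and log2 values were averaged over the probes of a miRNA detected on all 4 arrays. limma 3.58.1 (R 4.3.3) fitted title and passage as additive terms over 153 miRNAs, leaving 1 residual degree of freedom each. Its prior was infinite, so that 1 pooled residual SD of 0.29 log2 judges all, and any interaction of title and passage sits in it. Calls are at a Benjamini-Hochberg adjusted p under 0.05. With cultures shared between groups, the p-values rest on array-to-array spread alone, which may be technical. All arrays lay on 1 slide, each group at a position of its own, so position and group cannot be told apart. Intervals are normal 95% intervals. The fit was tested on simulated data, and 12 alternatives varied scaling, background correction, the detection filter and the model. Members and lists were chosen with earlier results of these data known; all 8 members are named, with 7 miR-17-92 strands and the 5 nearest profiles.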

Additional observations from a re-analysis of the deposited data

How the results depend on the processing

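Among the 5 tested members, limma called 1 by title and 5 by passage. By title 0 members were called under quantile normalization, normexp, no scaling, an all-probe percentile, detection on at least 1 array, no filter or no passage term. By passage 0 were called without scaling, under an all-probe percentile or in the authors' processed values, and 1 with no filter or relative to the median miRNA. Over all miRNAs, the 4 title calls became 2 (all-probe percentile, quantile normalization or no scaling), 7 (median centring), 1 (no filter) and 0 (detection on at least 1 array, where 16 had an unadjusted p under 0.05, or no passage term, where 2 had). The 70 passage calls became 30 under the all-probe percentile, 21 without scaling and 7 with no filter. The split of these passage calls, 20 higher and 50 lower, was 39 and 17 in the authors' processed values, 25 and 5 under the all-probe percentile, 20 and 1 without scaling, 14 and 73 with normexp and 21 and 30 with quantile normalization. Without scaling the median miRNA stood at 0.56 by passage and 0.19 by title, and values turned sign: by title the members miR-106b (0.075), miR-93 (0.037) and miR-25 (0.063), by passage the members miR-106b (0.10) and miR-93 (0.035) and, of the related strands, miR-19b (0.10), miR-17* (0.015), miR-20a (0.0081) and miR-20a* (0.0096). miR-32, called only with normexp (-0.61, limma adjusted p = 0.0177), stood by passage at 0.47 under the all-probe percentile, 0.33 under quantile normalization, 0.67 without scaling, 0.34 in the authors' processed values and 0.11 relative to the median. Over 12 alternatives miR-92b was called 5 times by title (-1.20 to -0.26) and 4 times by passage, and miR-20b 8 times by passage (-1.28 to -0.22). miR-363 at passage 0 ran from -1.68 to -0.85 by title. With no filter most residuals were 0, which makes that fit unreliable. The cause of the other changes was not tested. A slide block was not run, as there was 1 slide. Leaving out any 1 array leaves a single pair and no residual degrees of freedom, so pair differences take its place. The passage term pairs the samples of a shared culture, so the fit without it is the unpaired one. Beyond that, pairing by replicate number was not possible because the labels give none. Signal near background limits miR-18b, miR-106b*, miR-363 and miR-92b. The offset of 50 units in normexp shrinks differences of such dim probes by construction.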
